A study of Mus musculus with 9 samples.

Results

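Fc gamma receptors bind the constant part of IgG, and the phagocyte oxidase makes superoxide on the membranes that close around what such receptors bring in. The 9 genes described here encode 4 mouse Fc gamma receptors (Fcgr1, Fcgr3, Fcgr4 and Fcgr2b), the signalling chain that the activating receptors share (Fcer1g), and 4 subunits of the oxidase (Cybb, Cyba, Ncf1 and Ncf4). They were chosen by name, not by their measured values, and are 9 of the 47643 genes in the count matrix.

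The series measured hippocampal RNA of mice by poly-A selected RNA sequencing, with 1 library per mouse and 3 libraries in each of 3 groups. MRL/lpr animals have the lpr allele of Fas, a death receptor of lymphocytes, on the MRL background and develop lupus without further treatment. MRL/mpj mice, of the same background without the mutation, were the untreated controls, and the MRL/lpr animals were untreated too. MRL/lpr+MSC mice carried the same mutation and are labelled as treated with mesenchymal stem cells, stromal cells that are studied for their effects on immune responses. The dose, timing and source of those cells are not given in the sources used here, and the study does not describe this group. All mice were 6 weeks old, and the study perfused its mice before taking the hippocampus. The labels name C57BL/6 as the strain of all libraries, whereas the study has MRL/MpJ for the controls and MRL/MpJ-Faslpr for the mutants, which the names used here follow. The mutation is inherited and present in every cell, so that no comparison here singles out a cell type of the brain.

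An activating Fc gamma receptor that is cross-linked by IgG on a particle or in an immune complex signals through the paired tyrosines of the Fcer1g chain, by way of Src family kinases and Syk, and starts engulfment. Fcgr2b carries an inhibitory motif of its own and dampens this signal. In phagocytes the oxidase consists of a membrane pair, Cybb (gp91phox) and Cyba (p22phox), which is joined on activation by cytosolic subunits, among them Ncf1 (p47phox) and Ncf4 (p40phox), and by a Rac GTPase. In the brain most of these genes are known mainly from microglia, border macrophages and the leukocytes that enter from blood.

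Bases from the promoters of 5 members are shown because Cyba passed the test and the others hold matches to interferon-related motifs. Each run holds the 250 bases before the start of the gene in RefSeq, build GRCm38.p6, written 5′ to 3′ on the strand of the gene. Capitals mark matches, on either strand, to TTCNNNGAA (the interferon gamma activated site), to GAAA and a further GAAA with 2 bases of any kind between them (a core of the interferon-stimulated response element) and to GAGGAA (a core bound by PU.1, a factor of myeloid cells).
Fcgr1, chr3:96293970-96294219, minus strand: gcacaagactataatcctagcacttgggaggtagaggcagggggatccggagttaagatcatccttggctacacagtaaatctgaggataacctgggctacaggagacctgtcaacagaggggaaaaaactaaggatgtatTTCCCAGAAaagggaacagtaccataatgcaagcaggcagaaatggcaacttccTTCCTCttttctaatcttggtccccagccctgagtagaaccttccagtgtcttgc
Fcgr4, chr1:171018676-171018925, plus strand: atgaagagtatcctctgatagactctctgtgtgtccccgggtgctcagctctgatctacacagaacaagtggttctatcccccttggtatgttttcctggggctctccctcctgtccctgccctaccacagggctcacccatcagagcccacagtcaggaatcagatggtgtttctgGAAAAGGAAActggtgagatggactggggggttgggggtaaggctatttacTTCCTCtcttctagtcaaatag
Cybb, chrX:9469325-9469574, minus strand: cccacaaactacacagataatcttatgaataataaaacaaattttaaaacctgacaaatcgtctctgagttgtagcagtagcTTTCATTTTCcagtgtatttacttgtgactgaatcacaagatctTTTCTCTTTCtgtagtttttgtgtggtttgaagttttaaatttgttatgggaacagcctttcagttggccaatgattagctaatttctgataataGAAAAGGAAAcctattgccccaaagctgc
Cyba, chr8:122432941-122433190, minus strand: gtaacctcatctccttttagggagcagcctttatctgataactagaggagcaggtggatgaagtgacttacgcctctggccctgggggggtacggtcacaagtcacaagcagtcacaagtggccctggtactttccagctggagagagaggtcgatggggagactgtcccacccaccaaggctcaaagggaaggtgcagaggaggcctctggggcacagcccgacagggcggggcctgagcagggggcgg
Ncf1, chr5:134229626-134229875, minus strand: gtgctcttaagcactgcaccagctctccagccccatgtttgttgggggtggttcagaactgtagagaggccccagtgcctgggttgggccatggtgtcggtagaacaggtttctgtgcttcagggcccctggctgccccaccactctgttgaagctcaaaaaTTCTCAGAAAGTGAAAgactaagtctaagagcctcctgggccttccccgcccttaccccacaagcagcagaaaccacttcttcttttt

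RefSeq windows were found for 8 of the 9 members, without Ncf4. The interferon gamma activated site was present for Fcgr1, 109 bases before the start, and for Ncf1, 88 bases before it. The response element core was present once for Fcgr4 and for Ncf1, where it overlapped the other match, and 3 times for Cybb, at 168, 124 and 29 bases before the start. The PU.1 core was present for Fcgr1, Fcgr3 and Fcgr4. Among all 32851 windows of this length, 7.02% held the first motif, 2.98% the second and 23.3% the third. The windows printed for Cybb, and those searched for Fcgr3 and Fcgr2b, lie inside the span of the gene in the GENCODE annotation, where other transcripts start further upstream. A match is a run of letters and was not tested as a binding site.

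Each library held between 19475804 and 26912031 counts, and where a gene had a count of 0 its level could still reach that of 3 counts. This is 0.111 to 0.154 per 1000000 of the total count. CPM, the unit used below, is counts per 1000000 of a library size rescaled by TMM (18357926 to 28576746), so the limit differs somewhat on that scale. This limit covers counting error only. The labels of the treated and untreated MRL/lpr libraries carry a doubt. In the study's own table of values per gene, the columns named MRL/lpr are constant multiples of the libraries labelled MRL/lpr+MSC, and the columns named MRL/mpj are multiples of the libraries labelled MRL/mpj. The deposited labels were kept, every contrast is given side by side, and "MRL/lpr" below means the library so labelled. Fas itself did not tell the groups apart, at 1.83 ± 0.183 CPM in MRL/mpj and 1.80 ± 0.469 CPM in MRL/lpr mice (SD, n = 3), and reads over the gene as a whole do not check the mutation. In a bulk sample, fewer cells of a type and less RNA per cell cannot be told apart, and this holds for every value below.

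Some markers of other cells moved with the groups, and others varied by library or overlapped between groups. The summed level of 15 microglial markers was 414 to 450 CPM in MRL/mpj, 342 to 441 in MRL/lpr and 342 to 389 in MRL/lpr+MSC mice. Of these markers only Fcrls, an Fc receptor-like gene of microglia, passed the test of MRL/lpr against MRL/mpj mice, where it fell (log2 fold change -1.62, adjusted p = 0.0270, limma voom with Benjamini-Hochberg adjustment). The 6 T cell markers summed to between 1.85 and 2.55 CPM in MRL/mpj and to 19.7, 13.1 and 6.09 CPM in MRL/lpr libraries 1, 2 and 3, and 4 of them rose. Only 1 of the 6 had enough counts for the test of MRL/lpr+MSC against MRL/mpj mice. The others could be tested only through the MRL/lpr libraries, where they are high, which favoured a rise among those tested. Genes of inflammatory monocytes followed the same order of MRL/lpr libraries as the T cell sum. Ccr2 was at 5.74, 4.48 and 0.888 CPM and Ly6c2 at 8.40, 2.89 and 0.846 CPM, against at most 0.387 and 0.645 CPM in MRL/mpj mice. The whole list of 7 monocyte genes summed to between 25.3 and 49.8 CPM in MRL/lpr and between 32.5 and 34.0 CPM in MRL/mpj mice, groups that overlap. The 10 neutrophil markers summed to 30.7 CPM in MRL/lpr+MSC library 2, to 8.29 CPM in MRL/mpj library 1 and to between 0.623 and 2.88 CPM in the other libraries, with Ly6g at 0 in all 9. The 10 interferon-induced genes summed to between 23.4 and 24.9 CPM in MRL/mpj, 39.6 and 98.6 CPM in MRL/lpr and 30.1 and 41.2 CPM in MRL/lpr+MSC mice. Markers of hippocampal neurons summed to between 3625 and 4029 CPM in MRL/mpj, 2273 and 3167 CPM in MRL/lpr and 2515 and 3779 CPM in MRL/lpr+MSC mice, and of the 7 markers 1, Fibcd1, fell in MRL/lpr mice. Endothelial markers summed to between 187 and 218 CPM in MRL/mpj, 235 and 246 CPM in MRL/lpr and 247 and 273 CPM in MRL/lpr+MSC mice, and of the 5 markers 1, Cldn5, rose in MRL/lpr mice. Choroid plexus markers varied by library, from 99.1 to 9588 CPM within the MRL/lpr group. In MRL/lpr+MSC against MRL/mpj mice 1 microglial and 1 neuronal marker passed downwards, and 1 endothelial marker passed upwards. The part of any of these lists in the results below was not tested.

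MRL/lpr mice had higher Cyba, the small membrane subunit of the oxidase, and this was the only 1 of 8 tested members to pass the test against MRL/mpj mice. A gene passed if limma voom gave a difference of 1.5-fold or more with an adjusted p below 0.05, and 5.79% of the 16697 genes tested passed in either direction, 3.41% of them upwards. The fitted log2 fold change was above 0 for 7 of the 8 members, with a median of 0.79, where the median of all genes tested was 0.02. For 3 of these 8, Fcgr1, Cybb and Cyba, the MRL/lpr libraries lay wholly above the MRL/mpj libraries, where 38.0% of all genes tested did not overlap in either direction. The ninth gene, Fcgr4, was too low to be tested and did not overlap either. In the study Fcgr2b, Cybb, Cyba and Fcgr4 are named from this series. The MRL/lpr columns of its table match the libraries labelled MRL/lpr+MSC, so which libraries led to that choice is not settled. The direction of these genes here cannot be taken as independent of it.

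**Figure D1:**
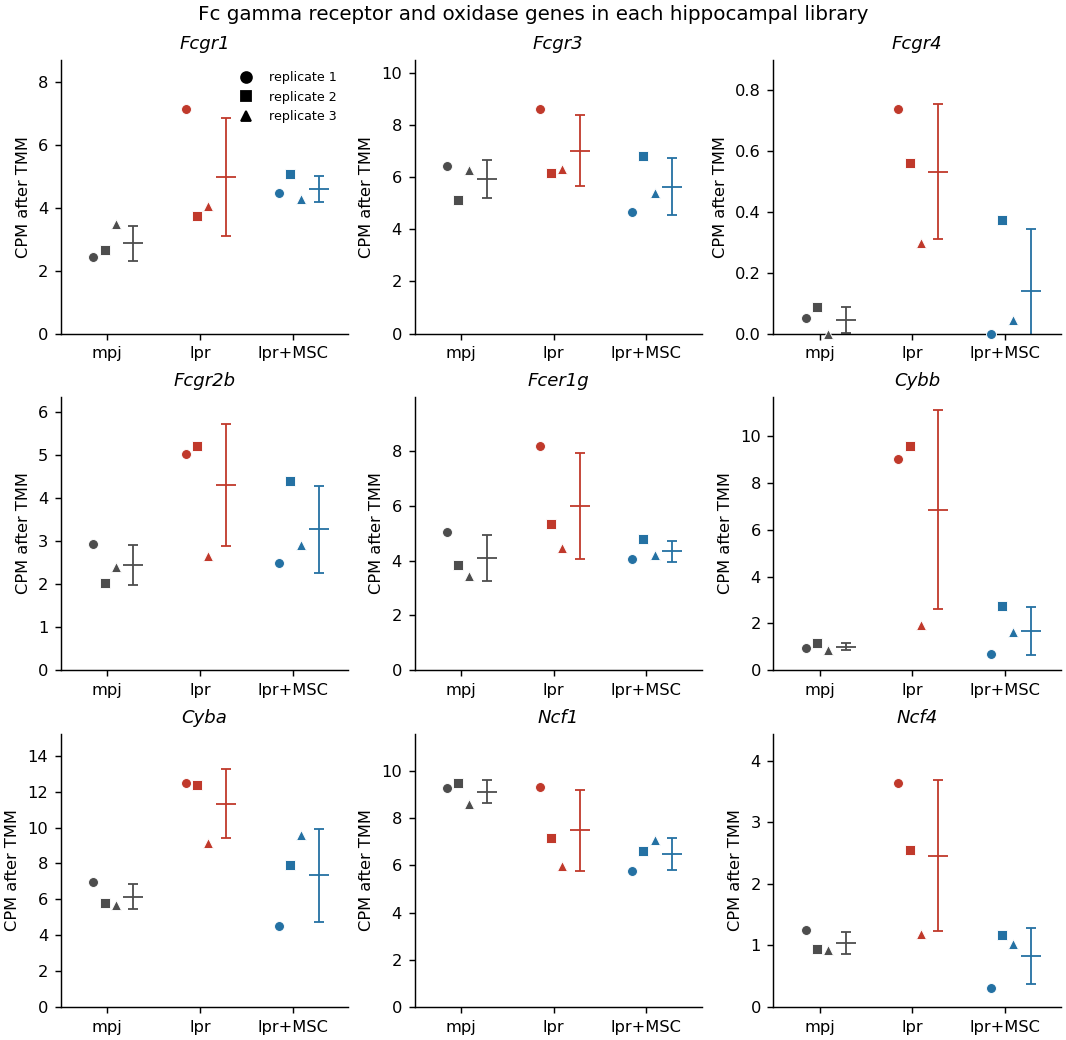
Level of each of the 9 members in CPM (vertical axes, each starting at 0) in the 3 libraries of each group, with the mean and SD; points are libraries. The MRL/lpr libraries 1 and 2 stand highest for Cybb, Cyba and Ncf4, and MRL/lpr library 3 lies nearer to the controls.

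Fcgr1 encodes the high-affinity IgG receptor. Its level was 2.45, 2.67 and 3.49 CPM in MRL/mpj mice, 7.14, 3.75 and 4.06 CPM in MRL/lpr mice and 4.46, 5.07 and 4.29 CPM in MRL/lpr+MSC mice. Every library with the lpr mutation was above every control, and MRL/lpr library 1 stood apart from the rest. The log2 fold change was 0.79 (SE 0.319, adjusted p = 0.151) for MRL/lpr and 0.71 (SE 0.191, adjusted p = 0.0835) for MRL/lpr+MSC against MRL/mpj, and neither passed the test. Between the treated and untreated mutants it was -0.08 (adjusted p = 0.971).

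Fcgr3, the low-affinity activating receptor, was the Fc gamma receptor with the highest level per length. It measured 6.45, 5.12 and 6.26 CPM in MRL/mpj mice, 8.61, 6.16 and 6.30 CPM in MRL/lpr mice and 4.67, 6.83 and 5.40 CPM in MRL/lpr+MSC mice. MRL/lpr library 1 was the highest, the other MRL/lpr libraries lay within the range of the controls, and all groups overlapped. The log2 fold change of MRL/lpr against MRL/mpj was 0.26 (95% interval -0.20 to 0.72, adjusted p = 0.396). Of the 50-base windows of its exons 9.58% also occur in other annotated transcripts, all of them in those of Fcgr2b, so that reads could be shared.

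Fcgr4 encodes the receptor that binds IgG2a and IgG2b with intermediate affinity. The counts, rather than CPM, show how rare its reads were: 1, 2 and 0 in the MRL/mpj libraries, 21, 13 and 7 in the MRL/lpr libraries and 0, 8 and 1 in MRL/lpr+MSC mice. Every MRL/lpr library was above every control, and of the treated libraries only library 2 was. Summed over libraries and scaled for their size, the MRL/lpr level was 11.2 times that of MRL/mpj mice (exact 95% interval 3.56 to 56.4, counting error only, 41 against 3 counts). For MRL/lpr+MSC mice the ratio to MRL/mpj was 2.92, with an interval of 0.728 to 16.8 that includes equality. Without a filter on low counts the gene could be tested, and its log2 fold change of 3.14 for MRL/lpr against MRL/mpj passed (adjusted p = 0.0268, limma voom), where 3.84% of 29355 genes did. That size rests on the small number added to counts before the logarithm.

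The level of Fcgr2b, the inhibitory receptor, was 2.95, 2.02 and 2.40 CPM in MRL/mpj mice, 5.04, 5.22 and 2.66 CPM in MRL/lpr mice and 2.49, 4.41 and 2.92 CPM in MRL/lpr+MSC mice. MRL/lpr libraries 1 and 2 were above all controls, whereas library 3 lay within their range. Against MRL/mpj, the MRL/lpr group had a log2 fold change of 0.78 (SE 0.333, adjusted p = 0.167). Of its 50-base windows 6.95% also occur in other genes, among them Fcgr3. Its exons overlap an antisense gene, Gm38204, and whether the counting used strand is not given in the sources used here.

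The balance of the activating receptors to the inhibitory one was taken per length, as the FPKM of Fcgr1, Fcgr3 and Fcgr4 together over the FPKM of Fcgr2b. This ratio was 9.23, 11.6 and 12 in the MRL/mpj libraries, 9.54, 6.04 and 11.8 in the MRL/lpr libraries and 10.3, 8.12 and 9.52 in MRL/lpr+MSC mice. The lowest ratio belonged to MRL/lpr library 2, and the groups overlapped.

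Fcer1g, the chain through which the activating receptors signal and reach the surface, measured 5.05, 3.83 and 3.43 CPM in MRL/mpj mice, 8.19, 5.35 and 4.48 CPM in MRL/lpr mice and 4.05, 4.79 and 4.20 CPM in MRL/lpr+MSC mice. MRL/lpr library 1 was the high one, and library 3 lay among the controls. In the fit, MRL/lpr differed from MRL/mpj by a log2 fold change of 0.55 (SE 0.286, adjusted p = 0.242), and that of MRL/lpr+MSC was 0.10 (adjusted p = 0.792). Per length, Fcer1g stood at 0.792 to 1.23 times the summed activating receptors in MRL/mpj mice and at 0.944 to 1.13 times in MRL/lpr mice, ranges that overlap.

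**Figure D2:**
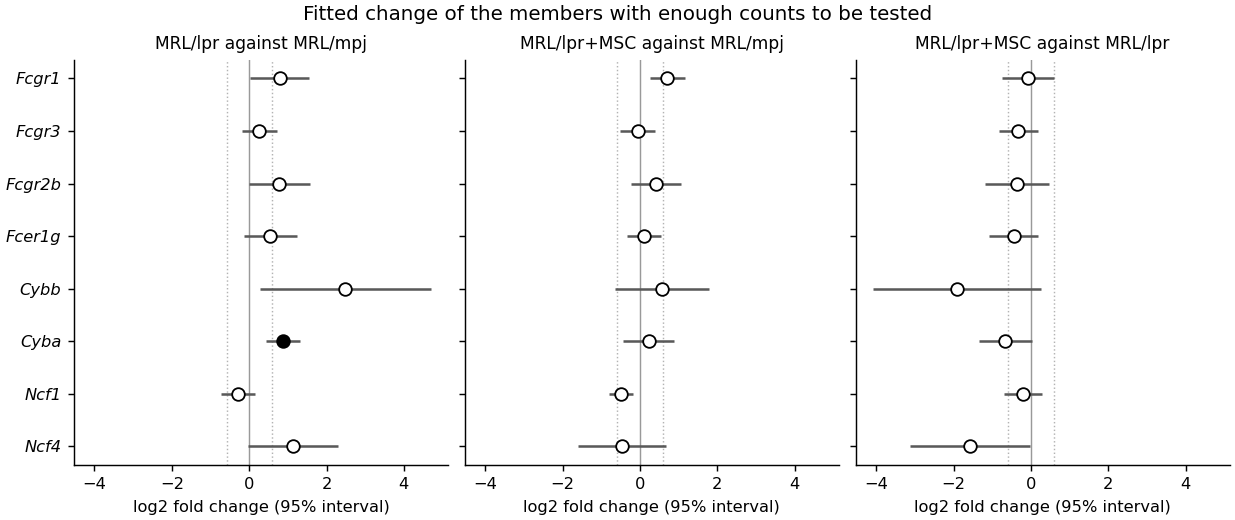
Fitted log2 fold change of the tested members (horizontal axis, with 95% intervals) in the 3 comparisons; dotted lines mark a 1.5-fold change, and a filled point passed the test. Cyba in MRL/lpr against MRL/mpj mice is the one filled point, at 0.88, and the interval of Cybb runs from 0.27 to 4.70.

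Cybb, the catalytic subunit that passes electrons to oxygen, had the largest SE of the tested members in MRL/lpr against MRL/mpj mice. It measured 0.949, 1.16 and 0.872 CPM in MRL/mpj mice, 9.03, 9.57 and 1.95 CPM in MRL/lpr mice and 0.675, 2.74 and 1.64 CPM in MRL/lpr+MSC mice. All MRL/lpr libraries were above all controls, but library 3 was far below libraries 1 and 2, and the highest and lowest of the group differed 4.92-fold. The log2 fold change of MRL/lpr against MRL/mpj was 2.48 (SE 0.923), or 5.59-fold, and did not pass the test (adjusted p = 0.131). Without MRL/lpr library 3, the lowest of its group, the estimate was 3.19 and passed (adjusted p = 0.00222, limma voom). This was the only 1 of the 6 fits that left out a library to pass. Over the 6 the log2 fold change ran from 2.09 to 3.19, and the adjusted p reached 0.302. The treated libraries straddled the controls, with a log2 fold change of 0.57 (adjusted p = 0.559).

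Cyba, which stabilises Cybb in the membrane and docks the cytosolic subunits, was less variable. Its level was 6.95, 5.81 and 5.67 CPM in MRL/mpj mice, 12.5, 12.4 and 9.14 CPM in MRL/lpr mice and 4.52, 7.90 and 9.60 CPM in MRL/lpr+MSC mice. All MRL/lpr libraries exceeded all controls, and the treated libraries spanned from below the controls to within the MRL/lpr range. The log2 fold change of MRL/lpr against MRL/mpj was 0.88 (SE 0.185, 95% interval 0.45 to 1.32), or 1.85-fold, and passed the test (adjusted p = 0.0347, limma voom with Benjamini-Hochberg adjustment). The call was kept without MRL/lpr library 2 (adjusted p = 0.0359) or 3 (adjusted p = 0.00966) and lost in the other 4 fits that left out a library. The adjusted p was 0.0980, 0.125 and 0.136 without MRL/mpj library 1, 2 or 3 and 0.0927 without MRL/lpr library 1, while the log2 fold change stayed between 0.80 and 1.02 in all 6 fits that left out a library. For MRL/lpr+MSC mice it was 0.22 against MRL/mpj (adjusted p = 0.686).

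Per length, the membrane partners were far from equal. The ratio of Cybb to Cyba FPKM was 0.0178, 0.0261 and 0.0201 in the MRL/mpj libraries, 0.0943, 0.101 and 0.0278 in the MRL/lpr libraries and 0.0195, 0.0453 and 0.0223 in MRL/lpr+MSC mice. The ratio was higher in every MRL/lpr library than in any control, by a narrow margin for library 3. Even the highest ratio left Cybb well below Cyba.

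Ncf1, the organiser that is phosphorylated on activation, was the only tested member with a fitted change below 0 in MRL/lpr against MRL/mpj mice. It measured 9.29, 9.51 and 8.61 CPM in MRL/mpj mice, 9.34, 7.16 and 5.96 CPM in MRL/lpr mice and 5.76, 6.60 and 7.08 CPM in MRL/lpr+MSC mice. The controls were tightly grouped, MRL/lpr library 1 lay among them, and all treated libraries were below them. The log2 fold change was -0.29 (SE 0.183, adjusted p = 0.323) for MRL/lpr and -0.49 (SE 0.131, adjusted p = 0.0810) for MRL/lpr+MSC against MRL/mpj, and neither passed. An exon of Ncf1 overlaps Gtf2ird2 on the other strand, and 7.45% of its 50-base windows are shared with other genes, nearly all with that one.

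Ncf4, which binds phosphatidylinositol 3-phosphate on the phagosome, was low in the controls. It measured 1.25, 0.946 and 0.926 CPM in MRL/mpj mice, 3.64, 2.54 and 1.18 CPM in MRL/lpr mice and 0.311, 1.16 and 1.02 CPM in MRL/lpr+MSC mice. MRL/lpr libraries 1 and 2 were above the controls and library 3 was among them, while treated library 1 had only 6 counts. For MRL/lpr against MRL/mpj the fitted log2 fold change was 1.12 (SE 0.490, adjusted p = 0.175). The FPKM ratio of Ncf1 to Ncf4 was 4.10 to 5.54 in MRL/mpj mice, 1.42 to 2.78 in MRL/lpr mice and 3.13 to 10.2 in MRL/lpr+MSC mice, so that MRL/lpr libraries alone lay wholly below the controls.

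Of the 6 fits that left out a library, the one without MRL/lpr library 3 changed the most calls among the members. Without it, Fcgr2b, Cybb, Cyba and Ncf4 passed against MRL/mpj mice, where 8.79% of 17184 genes did, with log2 fold changes of 1.08, 3.19, 1.02 and 1.56. Fcgr4, at 3.47, passed too, which made 5 members, but it could be tested there only because the filter then asked for 2 libraries in place of 3, and it met that through the MRL/lpr libraries alone. In most marker lists MRL/lpr library 3 had the lowest sum of its group, among them T cells, monocytes and interferon-induced genes. Its choroid plexus sum was 99.1 CPM, against 1054 and 9588 CPM in MRL/lpr libraries 1 and 2. Its meningeal fibroblast sum was 165 CPM, against 296 and 763 CPM. Its endothelial and red blood cell sums were the highest of the group. The part of these was not tested.

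Against MRL/mpj mice, none of the 8 tested members passed in MRL/lpr+MSC mice, where 3.43% of 16196 genes did. At an unadjusted p under 0.05 there were 2, Fcgr1 upwards and Ncf1 downwards, which were also the only tested members whose groups did not overlap, where 29.6% of all genes tested did not. The fitted log2 fold change was above 0 for 5 members and below 0 for 3, with a median of 0.16. The controls are the same libraries as in the comparison of untreated MRL/lpr mice.

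Treated and untreated MRL/lpr mice were compared directly as well. All 8 tested members had a log2 fold change below 0 for MRL/lpr+MSC against MRL/lpr, with a median of -0.41, and none passed. No gene passed in this comparison (0% of 16758, and 647 at an unadjusted p under 0.05 in limma voom), and the adjusted p of the members was 0.921 to 0.971. Ncf4, at -1.59 (95% interval -3.14 to -0.03), was the only tested member whose groups did not overlap, with a lowest MRL/lpr value of 1.18 and a highest treated value of 1.16 CPM, where 10% of all genes tested did not. The intervals of Cybb, -4.09 to 0.26, and of Cyba, -1.33 to 0.01, leave room for a fall of more than 1.5-fold as well as for equality. Fcgr4 stood at 0.261 times its MRL/lpr level (exact 95% interval 0.112 to 0.546, counting error only, 9 against 41 counts). That interval leaves out the spread between mice, and MRL/lpr+MSC library 2, with 8 of these counts, lay within the MRL/lpr range. Without a filter on low counts the log2 fold change of Fcgr4 was -2.58 and did not pass (adjusted p = 0.898, limma voom).

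Per length the order of the members in MRL/mpj mice ran from Cyba at 8.11 ± 0.899 FPKM (SD, n = 3) through Fcer1g, Fcgr3, Ncf1 and Fcgr1 to Ncf4, Fcgr2b and Cybb, with Fcgr4 last at 0.036 FPKM. Only the neighbours Ncf4 and Fcgr2b overlapped there. In MRL/lpr mice Cyba was first at 14.8 FPKM, then Fcer1g at 6.82 and Fcgr3 at 4.02, and from Ncf1 at 2.03 down to Fcgr4 at 0.419 FPKM each neighbour overlapped the next. Cybb had the eighth place in MRL/mpj mice, at 0.171 FPKM, and the seventh in MRL/lpr mice, at 1.17 FPKM. In MRL/lpr+MSC mice Fcgr1, at 1.78 FPKM, and Ncf1, at 1.77, overlapped, and the last 4 genes overlapped their neighbours.

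**Figure D3:**
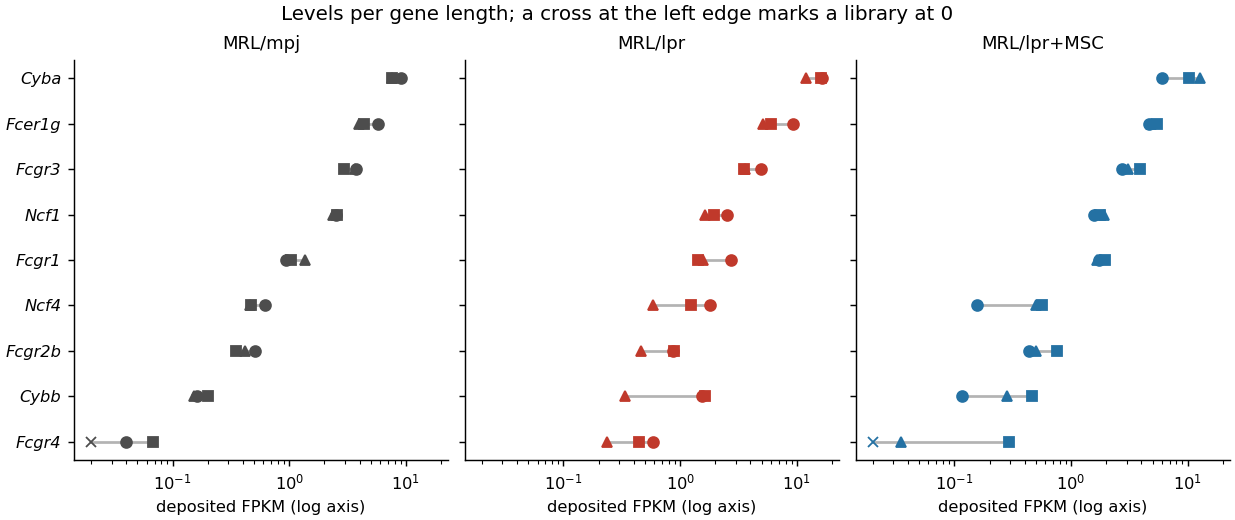
Level per length of each member in FPKM (log axis) in each library of the 3 groups; a cross marks a library at 0. Cyba is highest and Fcgr4 lowest by mean in every group, and the points of neighbouring genes mix most in MRL/lpr mice.

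The members were next set against 15 microglial markers, as the log2 CPM of the gene less the mean log2 CPM of the markers in the same library. On this scale the difference of MRL/lpr from MRL/mpj was 0.95 for Fcgr1, 0.43 for Fcgr3, 0.96 for Fcgr2b, 0.72 for Fcer1g, 2.66 for Cybb, 1.07 for Cyba and 1.29 for Ncf4, and none of these groups overlapped. On the same scale 29.5% of all genes tested lay wholly higher in MRL/lpr mice. Ncf1 differed by -0.11, with overlap, and by 0.10 when only 3 of the markers served as reference, so that its sign turned. Fcgr4, which has counts of 0, differed by 3.30 on this scale. The mean of the markers was 4.45, 4.18 and 4.09 in MRL/lpr libraries and 4.52, 4.43 and 4.39 in controls, on the log2 CPM scale, which adds to these differences. For MRL/lpr+MSC against MRL/mpj, Fcgr1 (0.96), Fcgr2b (0.66) and Fcer1g (0.37) did not overlap, where 43.1% of all genes tested lay wholly higher. No test was made on this scale, and the markers are also expressed by other macrophages.

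**Figure D4:**
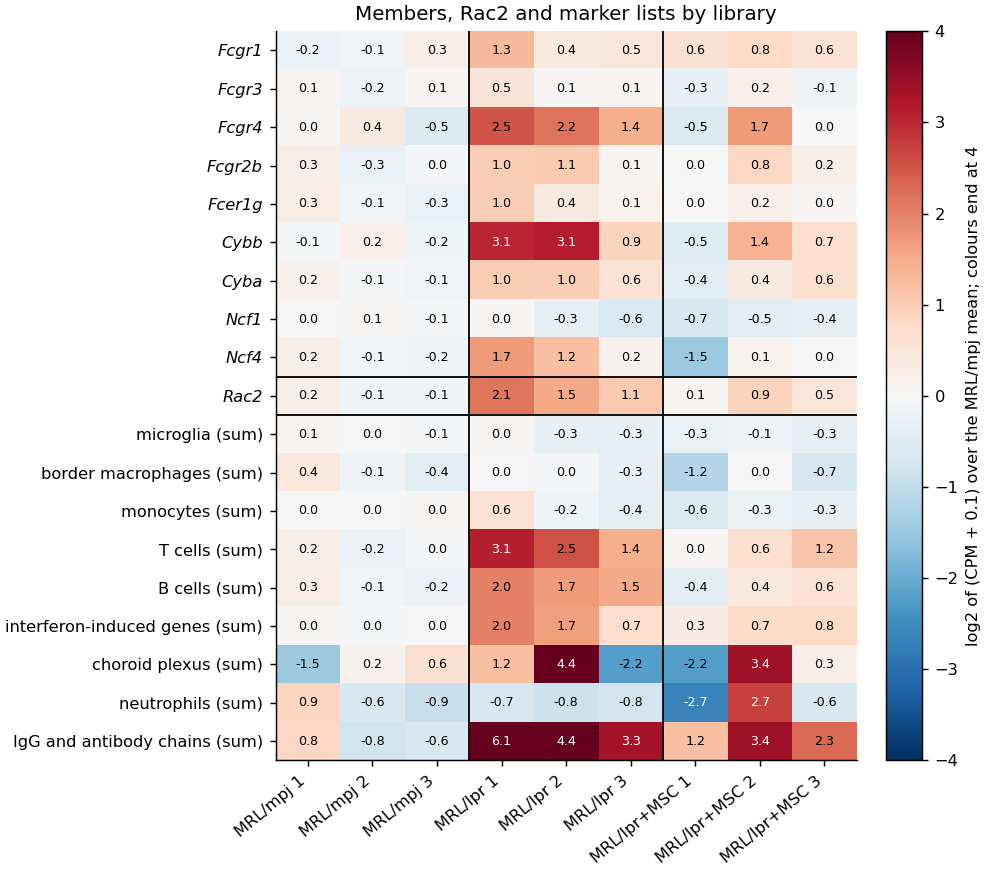
Log2 ratio of each member, of Rac2 and of each list's summed CPM to its MRL/mpj mean (0.1 CPM added to each), by library, with colours ending at 4. MRL/lpr libraries 1 and 2 are high for Cybb and for the T cell, B cell and interferon-induced lists, and the microglial values stay between -0.3 and 0.1.

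The oxidase has further partners, and of 13 genes in that list 8 were tested in untreated mutants against controls, where their log2 fold changes had a median of 0.27. Rac2, the Rac GTPase of blood cells that completes the active oxidase, was the one that passed in MRL/lpr mice. It measured 2.80, 2.15 and 2.12 CPM in MRL/mpj mice, 10.7, 6.85 and 5.03 CPM in MRL/lpr mice and 2.54, 4.41 and 3.32 CPM in MRL/lpr+MSC mice. All MRL/lpr libraries lay above all others, and the log2 fold change was 1.64 (SE 0.373, adjusted p = 0.0432), a call kept in 2 of the 6 fits that left out a library. None of the partners passed in the comparisons of MRL/lpr+MSC mice, of 7 tested against MRL/mpj and 9 against MRL/lpr.

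Downstream of the receptors, 17 of 18 signalling genes had enough counts for a test of MRL/lpr against MRL/mpj. None passed, 15 had a log2 fold change above 0, and the median was 0.36. In MRL/lpr+MSC against MRL/mpj mice Lcp2 (SLP-76), an adaptor of the Syk pathway, fell and was the only one of 17 to pass. Its level was 4.30, 3.61 and 4.03 CPM in MRL/mpj mice, 4.90, 3.92 and 3.85 CPM in MRL/lpr mice and 2.18, 1.72 and 1.73 CPM in MRL/lpr+MSC mice. The treated libraries were below all others, with a log2 fold change of -1.08 (SE 0.193, adjusted p = 0.0288), a call kept in 1 of the 6 fits that left out a library. In MRL/lpr+MSC against MRL/lpr mice 17 of 18 were below 0, with a median of -0.48, and none passed. Of 11 other Fc receptors only 4 had enough counts for the test of untreated mutants against controls, and none passed.

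The ligands of the receptors were measured as transcripts of IgG and antibody chains. All 8 tested genes of that list had a log2 fold change above 0 in MRL/lpr against MRL/mpj mice, with a median of 6.89, and 1 passed. This was Ighg2c, a heavy chain that Fcgr1 and Fcgr4 bind, with 9, 0 and 1 counts in MRL/mpj, 663, 197 and 182 in MRL/lpr and 38, 8 and 34 in MRL/lpr+MSC mice (log2 fold change 6.99 against MRL/mpj, SE 1.60, adjusted p = 0.0464). Ighg1, Ighg2b and Ighg2c met the filter on low counts through the MRL/lpr libraries alone, so the filter fixed their direction. Their sizes also rest on the small number added to counts before the logarithm. The MRL/lpr libraries stood far above the others, and the Ighg2c call was kept in 2 of the 6 fits that left out a library. Jchain, the joining chain of polymeric antibodies, was the one of 5 to pass in MRL/lpr+MSC against MRL/mpj mice (log2 fold change 3.74, SE 0.659, adjusted p = 0.0294), with 88, 258 and 204 counts against 17, 8 and 13, and this call too was kept in 2 of 6 such fits. The summed CPM of the list was 8.13 to 25.5 in MRL/mpj, 142 to 996 in MRL/lpr and 32.9 to 149 in MRL/lpr+MSC mice. None of 8 passed between treated and untreated MRL/lpr mice. These transcripts are made by B lineage cells, whose summed markers were 1.20 to 1.75 CPM in MRL/mpj and 4.23 to 6.02 CPM in MRL/lpr mice.

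MRL/lpr library 1 was the highest of the 9 libraries for 6 members, MRL/lpr library 2 for Fcgr2b and Cybb, and an MRL/mpj library for Ncf1. MRL/lpr+MSC library 1 was the lowest for 5 members and shared the lowest place, a count of 0, with MRL/mpj library 3 for Fcgr4. As a description over 9 libraries, which share their groups, the Pearson correlation of log2 CPM between members ran from -0.305 (Fcgr1 and Ncf1) to 0.903 (Cybb and Cyba), with a median of 0.685 over 36 pairs.

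Of 14944 genes searched, those most like each member over the 9 libraries by Pearson r of log2 CPM were named by the first of each list. For the receptors these were Rbpjl for Fcgr1 (0.965), Vav1, an exchange factor for Rac, for Fcgr3 (0.951), Hs1bp3 for Fcgr4 (0.983), Antxr1 for Fcgr2b (0.976) and S1pr5 for Fcer1g (0.956). For the oxidase they were C1s1, a complement protease, for Cybb (0.987), Prcp for Cyba (0.976), Otulin for Ncf1 (0.940) and Serping1, the inhibitor of that protease, for Ncf4 (0.985). The next 2 for Cybb were Plbd1 (0.985) and Nfkb1 (0.970). The points share group, depth and cell makeup, and such a ranking over few libraries is a description.

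Fcgr2b, Fcgr3, Fcgr4 and Fcer1g lie close together on chromosome 1, the first 3 between 170958617 and 171064935 and Fcer1g from 171229572 to 171234365 (GRCm38). Within 500 kb of the receptors the matrix held 58 genes, and 26 that were not members had enough counts for the test of MRL/lpr against MRL/mpj. Pcp4l1 rose, Nos1ap fell, no other passed, and the median log2 fold change was -0.04. Of all 16697 genes tested in this comparison 5.79% passed in either direction. The members at this locus stood at 0.26 to 0.78 in the same fit, without Fcgr4. The other members lie on chromosomes 3 (Fcgr1), X (Cybb), 8 (Cyba), 5 (Ncf1) and 15 (Ncf4).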

How the data were processed

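Per the study's methods, STAR aligned the reads to mm10 (the labels name TopHat2 and GRCm38) and HTSeq gave counts per gene. The authors deposited a matrix of these counts, not normalized, for 47643 genes and 9 libraries, and FPKM per library. Whether the counting used strand is not given in the sources used here. Gene symbols came from GENCODE for GRCm38 and matched 47224 genes. FPKM, the authors' counts per length and library size, was used only for levels between genes. Columns of per-sample values that matched no sample numbered 0. The study's table was used only to check labels, and its fold changes were not used.

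Counts were scaled by TMM (30% and 5% trims) with code written here. A gene was tested with at least 3 libraries at the CPM equivalent of 10 counts and a total of at least 15, by limma voom (R 4.3.3, limma 3.58.1, statmod 1.5.0), robust moderation and adjustment by Benjamini-Hochberg over every tested gene, each comparison on its own 6 libraries. A call needed an adjusted p under 0.05 and a 1.5-fold change. The plan named edgeR's quasi-likelihood test, which was not run because the column separator kept the values from being registered as counts. An exact permutation of 3 against 3 libraries cannot go below 0.10, so single genes have no such test. P-values set the difference between groups against the spread between these libraries, moderated over all genes tested. The test was tried on simulated data. Members, lists and the naming rule (all members, called genes of each pathway list, the likest genes, neighbours within 500 kb, Fas) were chosen with earlier results of these data known. Genes named outside the rule (Fcrls, Fibcd1, Cldn5, Ccr2, Ly6c2, Ly6g, Pcp4l1, Nos1ap) were chosen after their values were seen. Alternatives are given in the closing section. The values of 1 gene of the lists are not reported here.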

Additional observations from a re-analysis of the deposited data

How the results depend on the processing

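The count of members called in MRL/lpr against MRL/mpj mice was 1, and it was 2 without a filter on low counts, 0 in a test against a 1.5-fold change, 0 with all 9 libraries in one fit, 2 with the replicate number as a block, 2 with limma-trend, 3 with library quality weights and 0 to 5 without 1 library. The calls gained were Fcgr4 without the filter, Cybb with the block (log2 fold change 2.71, adjusted p = 0.0229), limma-trend and weights, and Fcgr1 with weights. The genes called were 104 in the 1.5-fold test, 2065 with weights, 1884 with choroid plexus level as a term and 165 to 1695 without 1 library, against 967. Of the pathway genes 1 was called, and 2 without the filter, 0 in the 1.5-fold test, 3 with 9 libraries, 4 with the block, 3 with limma-trend, 7 with weights, 2 with the choroid plexus term and 0 to 9 without 1 library. In MRL/lpr+MSC against MRL/mpj mice the genes called were 100 in the 1.5-fold test, 280 with the block, 1177 with weights and 193 to 1514 without 1 library, against 556, and the pathway genes called 0 in the 1.5-fold test, 0 with the block and 0 to 2 without 1 library, against 1. No gene was called between treated and untreated mice under any setting run. Leaving out 1 library turned the sign of small differences, and the log2 fold change ranged from -0.23 to 0.048 for Fcgr3, -0.0047 to 0.25 for Fcer1g, -0.026 to 0.52 for Cyba and -0.80 to 0.076 for Ncf4 in MRL/lpr+MSC against MRL/mpj mice, and from -0.26 to 0.24 for Fcgr1 in MRL/lpr+MSC against MRL/lpr mice. With 3 microglial markers in place of 15, the difference of MRL/lpr from MRL/mpj was 0.64 for Fcgr3, 1.29 for Cyba and 0.10 for Ncf1, whose sign reversed. The cause was not tested. Same-numbered libraries of MRL/lpr and MRL/mpj mice correlated in their deviations by -0.02, 0.20 and 0.09, those of MRL/lpr+MSC and MRL/mpj mice by -0.03, 0.13 and 0.36 and those of MRL/lpr+MSC and MRL/lpr mice by -0.21, 0.23 and 0.33. At least 1 pair was below 0 in each comparison, and MRL/lpr library 1 correlated best with MRL/mpj library 3 (0.17), so the numbers were not taken to pair mice. limma-trend, weights and the choroid plexus term were chosen after seeing the data. DESeq2 and the settings built on edgeR were not run, and the 1.5-fold test was limma's.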
